A study of Danio rerio with 14 samples.

Results

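Phase II conjugation enzymes attach a water-soluble group to foreign compounds and to hormones, bile pigments and lipid breakdown products, so that they can be carried out of the cell. UDP-glucuronosyltransferases (UGT) transfer glucuronic acid, cytosolic sulfotransferases (SULT) transfer sulfate from the donor PAPS, and glutathione S-transferases (GST), with the membrane-bound microsomal enzymes (MGST), transfer glutathione. In mammals some UGT and GST genes belong to the gene battery switched on by the aryl hydrocarbon receptor (AHR), and the liver and gut are main sites of these enzymes. In fish the UGT families taken into the set are named ugt1, ugt2 and ugt5, and UGT8 is counted apart with other conjugation genes.

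The set was chosen by name: genes whose symbol starts with ugt1, ugt2, ugt5, sult1 to sult6, gsta, gstm, gstp, gstt, gsto, gstr, gstk or mgst, with at least 10 counts in at least 3 libraries. The rule also listed ugt1b5, sult6b1 and gstp1.2 by ID, though their symbols would have admitted them. It was drawn up with earlier results of these data known. Of 32105 genes listed, 67 carried such a symbol and 48 passed the count rule: 17 UGT, 12 SULT and 19 GST and MGST genes. The 19 that did not pass were 10 UGT, 7 SULT and 2 GST genes; among them were ugt1b2, ugt1b3 and ugt1b4, with at most 3, 2 and 2 counts in any library. All 48 also passed the filter for testing. Of the 48, 39 had 10 or more counts in all 14 libraries. 6 others (ugt5b1, ugt5b3, ugt5d1, sult3st2, sult3st3 and sult5a1) reached 10 counts in fewer than 3 ahrra-null libraries and so entered the set through wild-type libraries; the counts of genes lower in ahrra-null, in all and by superfamily, are therefore also given without them. No gene entered through the ahrra-null libraries alone.

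Whole zebrafish embryos, all labelled Tupfel longfin, were sampled at 72 h post-fertilization (hpf). They were wild type, or came from an ahrra-null line in which zinc finger nucleases disrupted a gene for a repressor of the AHR. How many founders the line goes back to is not stated, so the lesion and the background of the line cannot be told apart in any difference between the lines. At 6 hpf they received either 0.01% DMSO as carrier or 2 nM of the dioxin TCDD, a strong AHR ligand, for 1 h. RNA-seq gave 3 libraries each of wild-type DMSO (replicates 2, 3 and 4) and wild-type TCDD (6, 7 and 8), and 4 each of ahrra-null DMSO (9 to 12) and ahrra-null TCDD (13 to 16).

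Levels below are CPM, the counts of a gene relative to the size of its library after TMM scaling, printed in the order of these replicate numbers. They are not divided by transcript length, so levels are compared between groups for a gene and not between genes. Log2 fold changes carry an approximate SE and a Benjamini-Hochberg adjusted p over 21606 genes from edgeR's quasi-likelihood test; a gene was called at an adjusted p under 0.05. Depth by library is a total of 16852240 to 23081186 counts. With carrier the ahrra transcript ran from 0.612 to 1.39 CPM in wild type and from 0.879 to 1.42 CPM in ahrra-null. With TCDD it ran from 14.1 to 20.5 CPM and from 21.1 to 54.5 CPM, without overlap of the lines. It does not check the genotype labels because the place of the lesion is not given. Markers of several organs were present, as they should be in whole embryos, with group means of 396 to 457 CPM for the neuronal ELAVL3 and 5582 to 6547 CPM for the epidermal krt4; the pancreatic ela2 did not pass the filter. The labels name no separate clutches, so p-values measure only how far these samples spread, and that spread may be technical. In whole embryos, fewer cells of a type and less RNA per cell cannot be told apart.

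With TCDD, 3 of the 48 genes rose in both lines: the glucuronosyltransferase genes ugt1b5 and ugt1b1 and the sulfotransferase gene sult6b1. A further gene, gstt1b, rose in wild type, and another, gstp1.2, rose in ahrra-null. None fell in either line. In wild type 4 of 48 were called, all higher, where 0.856% of all genes tested were called, 0.481% higher and 0.375% lower. In ahrra-null it was also 4 of 48, all higher, where 1.18% of all genes were called, 0.815% higher and 0.361% lower. The called genes include ugt1b5 and sult6b1 in both lines and gstp1.2 in ahrra-null, which the rule listed by ID. Because the set was chosen with earlier results of these data known, these counts against the shares over all genes are no independent result. The CPM of the TCDD libraries lay wholly above that of the DMSO libraries in 7 genes and below in 1 in wild type, where 6.64% and 6.84% of all genes did so, and in 6 and 1 genes in ahrra-null, where 3.14% and 2.75% did. The other 44 genes in each line did not pass, and the median log2 fold change over the 48 was 0.04 in wild type and 0.11 in ahrra-null, against 0.00 over all genes in both.

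The gene ugt1b5 (ENSDARG00000089507) encodes an enzyme that glucuronidates small molecules. The wild-type DMSO libraries held 13.3, 13.4 and 14.5 CPM and the wild-type TCDD libraries 51.7, 52.6 and 54.2 CPM. Those of ahrra-null held 10.7, 13.2, 9.89 and 10.7 CPM with DMSO and 54.2, 56.5, 39.5 and 55.7 CPM with TCDD. All 7 TCDD libraries lay above all 7 DMSO libraries, and replicate 15 was the lowest of the exposed. The log2 fold change was 1.94 ± 0.12 (SE, adjusted p = 4.37e-08) in wild type, a ratio of means of 3.85. In ahrra-null it was 2.21 ± 0.10 (adjusted p = 3.21e-10), a ratio of 4.62.

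The neighbouring gene ugt1b1 (ENSDARG00000097491) measured 7.52, 7.55 and 6.10 CPM in wild-type DMSO and 21.2, 21.97 and 18.999 CPM in wild-type TCDD. In ahrra-null it measured 4.16, 3.73, 4.23 and 5.22 CPM with DMSO and 19.8, 20.9, 10.2 and 17.2 CPM with TCDD. Again no exposed library fell into the range of the carrier libraries, and replicate 15 was the lowest exposed. The log2 fold change was 1.55 ± 0.21 (adjusted p = 0.00173) in wild type and 1.97 ± 0.20 (adjusted p = 8.73e-05) in ahrra-null. Another gene of the cluster that passed the count rule, ugt1b7 (ENSDARG00000101176), did not pass the test in either line (log2 fold changes 0.48 and 0.04; chosen after its values were seen). In the RefSeq annotation of the later assembly GRCz12tu all 7 ugt1b genes overlap another of the cluster and 5 share an end; how reads in shared exons were counted is not stated, so the split of reads among ugt1b copies is uncertain.

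Together ugt1b1 and ugt1b5 made up 30.2% ± 3.45 (SD, n = 3) of the summed CPM of the 17 UGT genes in wild-type DMSO and 59.4% ± 0.930 (n = 3) in wild-type TCDD. In ahrra-null the share went from 30.9% ± 3.15 (n = 4) to 63.8% ± 4.28 (n = 4). These are shares of counts not divided by transcript length, and so not shares of transcripts. The UGT sum itself was 61.1 to 77.4 CPM in wild-type DMSO and 121.7 to 125 CPM in wild-type TCDD, and 48.1 to 53.9 CPM against 83.9 to 120.9 CPM in ahrra-null. Without those 2 genes the sum of the other 15 ran from 40.5 to 56.6 CPM in wild-type DMSO and from 48.8 to 52.2 CPM in wild-type TCDD. In ahrra-null it ran from 32.2 to 39.0 CPM with DMSO and from 34.2 to 47.0 CPM with TCDD. The groups overlapped in both lines. The 2 genes left out are those UGT genes called with TCDD in these same libraries. The overlap and the rise of their share thus follow from that choice and are no separate result.

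The sulfotransferase gene sult6b1 (ENSDARG00000086826) measured 28.8, 28.4 and 25.5 CPM in wild-type DMSO and 80.9, 65.0 and 78.6 CPM in wild-type TCDD. In ahrra-null it stood at 24.6, 18.9, 22.8 and 24.7 CPM with DMSO and at 84.4, 82.9, 49.9 and 74.1 CPM with TCDD. The exposed libraries lay above the carrier libraries in both lines. The ratio of means was 2.71 in wild type (log2 fold change 1.44 ± 0.18, adjusted p = 0.00291) and 3.20 in ahrra-null (1.68 ± 0.16, adjusted p = 0.000305). Without sult6b1 the wild-type SULT sums overlapped, at 92.7 to 105.8 CPM with DMSO and 96.8 to 102.9 CPM with TCDD. Those of ahrra-null did not, at 97.7 to 109.5 CPM with DMSO and 110.2 to 125.6 CPM with TCDD. This gene was left out because it was called in these same libraries, so these sums are no separate result. None of the other 11 SULT genes was called with TCDD in either line, and sult1st4, of a family that sulfates phenols, was the 1 gene of the 48 whose TCDD libraries all lay below the DMSO libraries, at log2 fold changes of -0.59 in wild type (adjusted p = 0.328) and -0.49 in ahrra-null (adjusted p = 0.234; chosen after its values were seen).

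**Figure D1:**
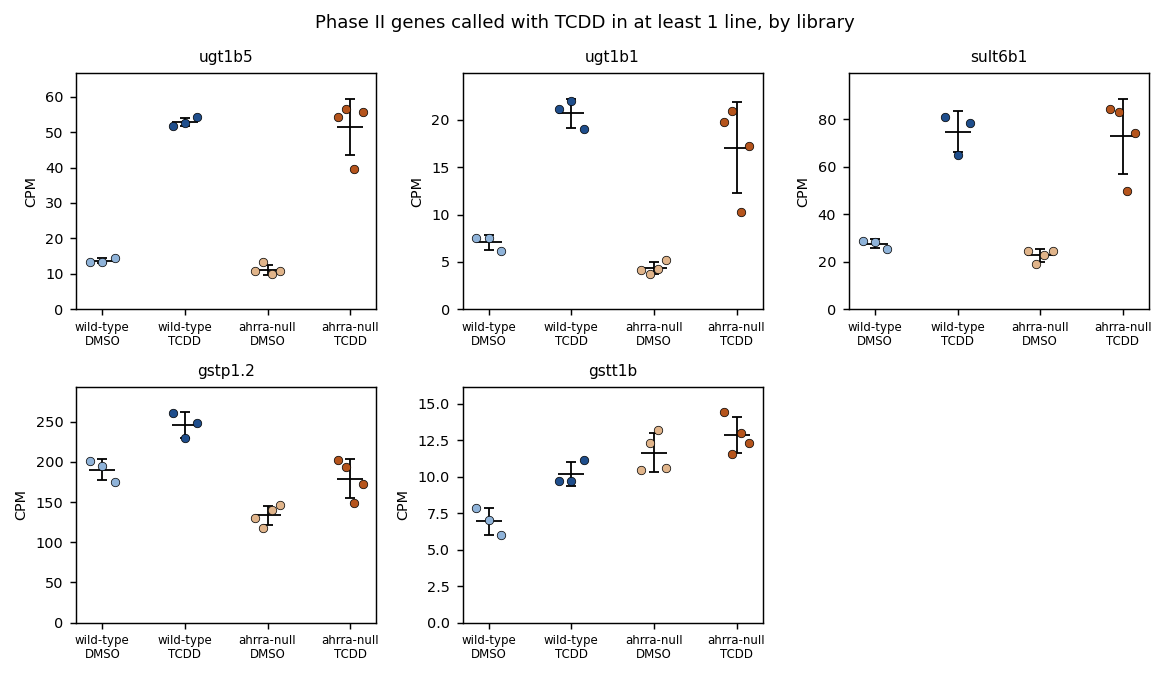
Levels in CPM (vertical axes, linear from 0) of the 5 phase II genes called with TCDD in at least 1 line, by group; points are libraries, and bars are the mean and SD of 3 or 4 libraries. In ugt1b5, ugt1b1 and sult6b1 each TCDD library lies above each DMSO library, and in gstt1b the ahrra-null groups overlap.

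The pi-class gene gstp1.2 (ENSDARG00000104068), a glutathione transferase induced by oxidants through Nrf2 in zebrafish, had the highest CPM of the GST genes. It measured 201, 195 and 175 CPM in wild-type DMSO and 261, 229 and 248 CPM in wild-type TCDD. In ahrra-null it measured 129.9, 118, 139.8 and 146 CPM with DMSO and 202, 194, 149 and 172 CPM with TCDD. Groups did not overlap in either line. The log2 fold change was 0.42 ± 0.09 in ahrra-null (adjusted p = 0.0205), where the gene was called, and 0.37 ± 0.10 in wild type (adjusted p = 0.119), where it was not. The call in ahrra-null was lost without replicate 9, 10, 13 or 14, and when only ahrra-null libraries were fitted; its adjusted p ran from 0.00027 to 0.0736 over all alternatives. Its neighbour gstp1.1 (ENSDARG00000103019) did not pass in either line (log2 fold change 0.11 in wild type, 0.90 in ahrra-null).

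Of the theta class, gstt1b (ENSDARG00000017388) measured 7.84, 7.04 and 5.99 CPM in wild-type DMSO and 9.71, 9.73 and 11.1 CPM in wild-type TCDD, so the groups did not overlap. In ahrra-null it measured 10.5, 12.4, 13.2 and 10.6 CPM with DMSO and 14.5, 11.6, 13.02 and 12.3 CPM with TCDD, and the groups overlapped. The log2 fold change was 0.55 ± 0.12 (adjusted p = 0.0281) in wild type and 0.14 ± 0.10 (adjusted p = 0.662) in ahrra-null. That call in wild type was lost when 5 of the 6 wild-type libraries were left out in turn (all but DMSO replicate 2) and when only wild-type libraries were fitted, with adjusted p from 0.00568 to 0.188 over the alternatives. The remaining 17 GST and MGST genes were not called with TCDD in either line; gsta.1 and the 3 genes printed as GSTM3, of the alpha and mu classes, had log2 fold changes from -0.23 to 0.08.

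**Figure D2:**
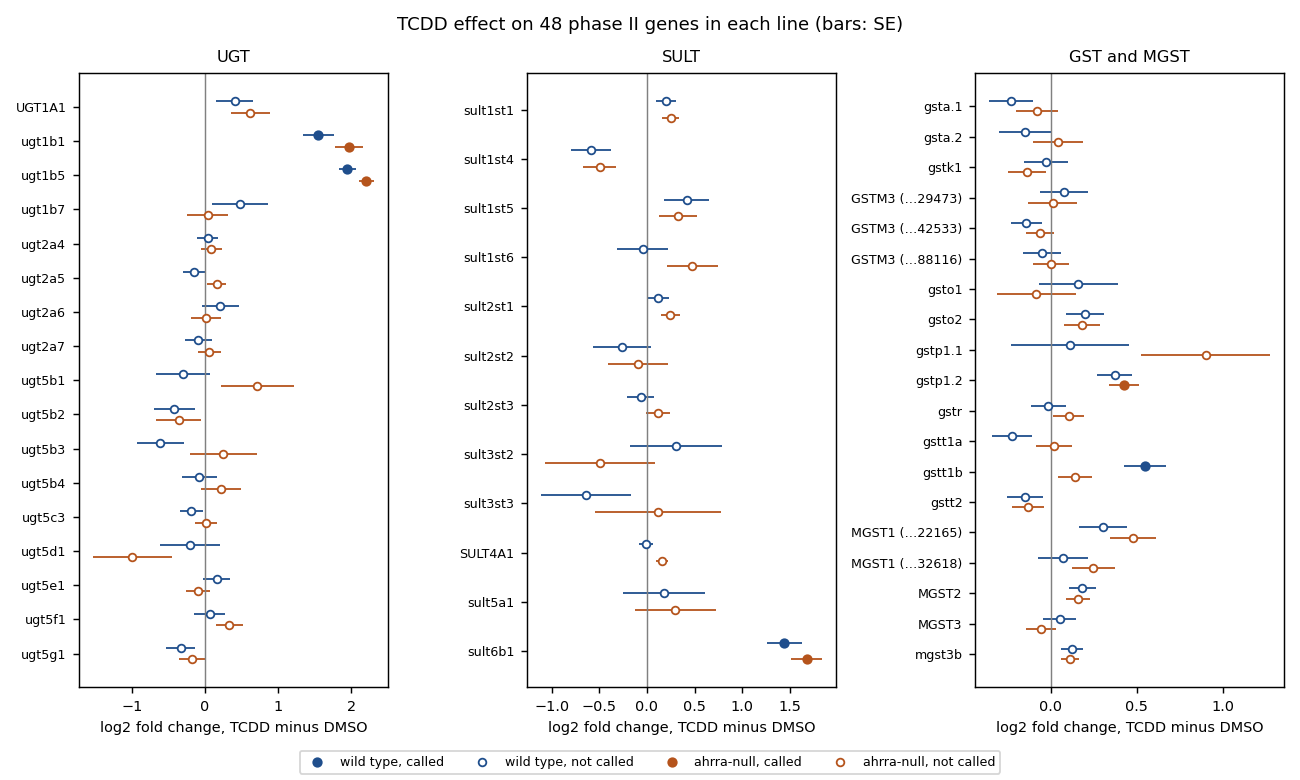
Log2 fold change of TCDD against DMSO (horizontal axes, bars are SE) for the 48 phase II genes in wild type (blue) and ahrra-null (orange), split by superfamily; filled points were called. The filled points are ugt1b1, ugt1b5 and sult6b1 in both lines, gstt1b in wild type and gstp1.2 in ahrra-null.

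Whether the TCDD effect differed between the lines was tested as an interaction. No phase II gene and 0% of all genes were called. At an unadjusted p under 0.05, 1 of the 48 genes and 1117 of 21606 genes stood out, and DESeq2 and limma voom also called 0 of the 48. The interaction log2 value was 0.26 ± 0.16 for ugt1b5 (adjusted p = 0.963), 0.42 ± 0.29 for ugt1b1 (adjusted p = 0.972), 0.24 ± 0.24 for sult6b1 (adjusted p = 0.975) and 0.05 ± 0.13 for gstp1.2 (adjusted p = 0.986), each as ahrra-null minus wild type. For gstt1b it was -0.40 ± 0.16 (unadjusted p = 0.0177, adjusted p = 0.948). That gstt1b was called in wild type and gstp1.2 in ahrra-null thus does not show that the effect differed between the lines.

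Replicate 15 held the lowest value of the 4 exposed ahrra-null libraries in ugt1b5, ugt1b1, sult6b1 and gstp1.2. Its ratio to the mean of the ahrra-null carrier libraries was 3.54 for ugt1b5, against 4.86 to 5.07 in the other 3 exposed libraries. For ugt1b1 the ratio was 2.36 against 3.97 to 4.83, and for sult6b1 2.20 against 3.26 to 3.71. In the same library CYP1A1, the monooxygenase gene used as the common readout of AHR activation, was 115 times the carrier mean, against 260.4 to 272 times in the others. Without replicate 15 the 3 genes remained called in ahrra-null.

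Between the lines, most phase II genes that differed were lower in ahrra-null embryos. With DMSO, 23 of the 48 genes were lower and 2 higher in ahrra-null, where 21.6% of all genes tested were called, 11.7% lower and 9.91% higher. With TCDD 18 were lower and 2 higher, where 25.8% of all genes were called, 13.1% lower and 12.7% higher. The groups did not overlap in CPM for 19 genes lower and 2 higher with DMSO (13.2% and 12.9% of all genes) and for 20 lower and 3 higher with TCDD (18.4% and 17.7%); without the 6 genes that entered through wild-type libraries, 17 were lower in each exposure. The 2 comparisons share no library, but they contrast the same 2 lines and come from a joint fit. Of the 48 genes, 16 were called lower in both, 2 were called higher in both and none was called in opposite directions. The log2 differences had the same sign in 41 of 48. The median log2 difference over the 48 was -0.41 with DMSO and -0.30 with TCDD, against -0.01 and 0.00 over all genes. These medians and the counts shared by the 2 comparisons include the 6 genes that entered through wild-type libraries. All 6 had negative differences in both comparisons, and ugt5b3 was called lower in both. How many of all genes agreed between the 2 comparisons was not counted, so the agreement is no result about these 48. Without those 6 genes, 20 of 42 were lower with DMSO and 16 of 42 with TCDD, and the same 2 were higher.

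The count with DMSO depended on wild-type DMSO replicate 2. Without that library 16 genes were called, 14 of them lower, while the genes called over the whole table went from 4670 to 2844. With TCDD the number lower went from 18 to 11 without ahrra-null TCDD replicate 15, while the genes called over the whole table went from 5577 to 4961. The number higher went from 2 to 1 without wild-type TCDD replicate 6, wild-type TCDD replicate 7 or ahrra-null TCDD replicate 13, where 3987, 3931 and 5275 genes were called over the whole table. With 1 surrogate variable in the fit 13 genes were called with DMSO, 11 of them lower, and 3165 over the whole table.

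**Figure D3:**
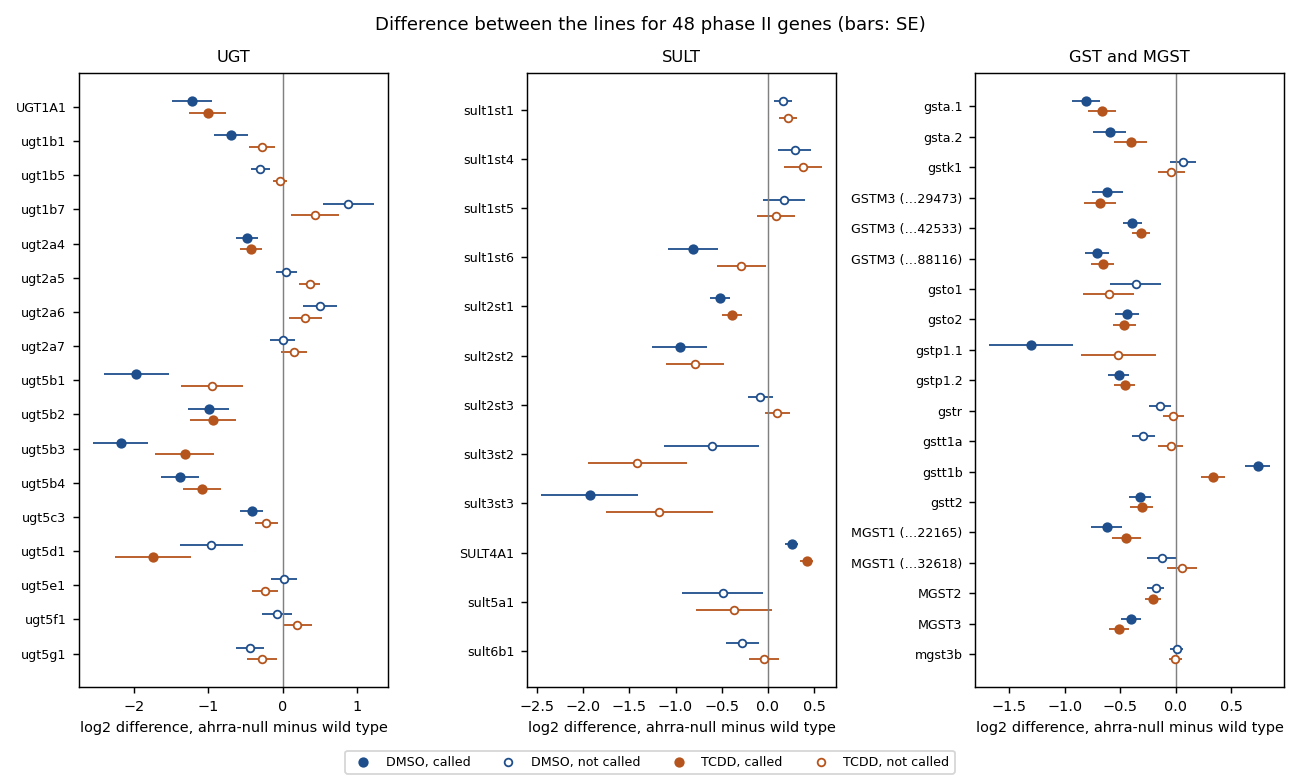
Log2 difference, ahrra-null minus wild type (horizontal axes, bars are SE) for the 48 phase II genes with DMSO (blue) and with TCDD (orange), by superfamily; filled points were called. Filled points lie left of 0 except those of SULT4A1 and gstt1b, and ugt5b3 with DMSO has the lowest value. The filled points of ugt5b1, ugt5b3, ugt5d1 and sult3st3 belong to genes that entered the set through wild-type libraries.

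Glucuronosyltransferase genes made up 8 of the 23 lower genes with DMSO and 6 of the 18 with TCDD. That is 47.1% and 35.3% of the 17 UGT genes, where 11.7% and 13.1% of all genes were lower. No UGT gene was called higher, where 9.91% and 12.7% of all genes were, which among 17 genes is no result. Without ugt5b1, ugt5b3 and ugt5d1, which passed the count rule through wild-type libraries, 6 and 4 of 14 UGT genes were lower. Among the lower genes with DMSO were ugt5b2 and ugt5b4, of a UGT family found in fish. ugt5b1 and ugt5b3 of the same family were also called lower, but each reached 10 counts in all 6 wild-type libraries and in 1 and 2 of the 8 ahrra-null libraries, so that the count rule kept them only through the line where they were high. ugt5b4 (ENSDARG00000091916) measured 2.99, 2.75 and 2.38 CPM in wild-type DMSO against 0.851, 1.26, 1.099 and 0.961 CPM in ahrra-null DMSO. The TCDD libraries held 2.33, 2.61 and 2.78 CPM in wild type against 2.05, 0.555, 1.28 and 0.952 CPM in ahrra-null. No ahrra-null library reached the wild-type range in either exposure. The log2 difference was -1.38 ± 0.25 with DMSO (adjusted p = 0.000442) and -1.08 ± 0.25 with TCDD (adjusted p = 0.00286).

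ugt5b3 (ENSDARG00000099276) measured 1.92, 1.38 and 1.51 CPM in wild-type DMSO against 0.520, 0.263, 0.330 and 0.275 CPM in ahrra-null DMSO, from 27 to 36 counts against 5 to 11 counts per library. Its log2 difference was -2.18 ± 0.37 (adjusted p = 0.000202). With TCDD it was -1.32 ± 0.40 (adjusted p = 0.0165), the groups overlapped, and the call was lost without wild-type TCDD replicate 8 or ahrra-null TCDD replicate 15 or 16. ugt5b1 (ENSDARG00000104995) had 16 to 18 counts in wild-type DMSO and 2 to 8 in ahrra-null DMSO, with a log2 difference of -1.97 ± 0.44 (adjusted p = 0.00236), and was not called with TCDD (-0.95, adjusted p = 0.0990). ugt5b2 (ENSDARG00000101495), outside the naming rule and chosen after its values were seen, was called in both exposures, at -0.996 with DMSO and -0.94 with TCDD. Reads of the ugt5b copies may likewise be shared, since 4 of the 6 genes of the cluster overlap another in GRCz12tu. ugt5d1 (ENSDARG00000002394) was called with TCDD (-1.75 ± 0.51, adjusted p = 0.0137) on 10 to 14 counts against 1 to 5 counts per library; it reached 10 counts in 5 wild-type libraries and 1 ahrra-null library, so its place in the set also rests on wild type.

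UGT1A1 (ENSDARG00000006220), whose mammalian namesake conjugates bilirubin, measured 15.4, 12.3 and 8.21 CPM in wild-type DMSO and 6.81, 5.36, 4.94 and 3.52 CPM in ahrra-null DMSO. The TCDD levels were 16.3, 15.3 and 16.1 CPM for wild type and 11.3, 7.28, 5.46 and 7.62 CPM for ahrra-null. Wild-type DMSO libraries were widely spread, and still none was as low as the highest ahrra-null one. The log2 difference was -1.22 ± 0.27 with DMSO (adjusted p = 0.00732) and -1.01 ± 0.25 with TCDD (adjusted p = 0.0116). In GRCz12tu all 7 ugt1a genes overlap another of their cluster and 6 share an end, so which copies these reads came from is uncertain. The TCDD-responsive ugt1b1 was lower in ahrra-null with DMSO (-0.70 ± 0.23, adjusted p = 0.0442), but 9 of 14 alternatives ended that call (adjusted p from 0.00286 to 0.272), among them leaving out each of the 3 wild-type DMSO libraries or ahrra-null DMSO replicate 9, 10 or 11, and with TCDD it was not called (-0.28 ± 0.18, adjusted p = 0.270). Neither ugt1b5 (-0.30, adjusted p = 0.0930 with DMSO; -0.04, adjusted p = 0.815 with TCDD) nor sult6b1 (-0.28, adjusted p = 0.321; -0.04, adjusted p = 0.884) was called between the lines.

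Of the 12 SULT genes 4 were lower and 1 higher with DMSO, where 11.7% and 9.91% of all genes were. With TCDD 1 was lower and 1 higher. Of the 9 that did not enter through wild-type libraries, 3 were lower with DMSO and 1 with TCDD. The 1 of 12 in each direction with TCDD, 8.33%, is under the shares over all genes of 13.1% and 12.7%. sult2st1 (ENSDARG00000033170), of a family that sulfates steroids, measured 13.3, 12.5 and 10.96 CPM in wild-type DMSO against 7.52, 7.78, 8.90 and 10.1 CPM in ahrra-null DMSO. With TCDD the values were 12.6, 13.6 and 13.8 CPM against 10.99, 10.7, 10.2 and 8.81 CPM. It was the SULT gene called lower in both exposures, without overlap of the groups, at -0.52 ± 0.11 (adjusted p = 0.0014) and -0.39 ± 0.11 (adjusted p = 0.00855). SULT4A1 (ENSDARG00000101967), a sulfotransferase of the nervous system with no settled substrate, went the other way. It measured 55.3, 49.1 and 51.1 CPM in wild-type DMSO and 69.3, 64.8, 57.7 and 55.7 CPM in ahrra-null DMSO, and 52.3, 49.0 and 53.0 CPM against 73.0, 67.0, 66.8 and 68.5 CPM with TCDD. All ahrra-null libraries were above the wild-type ones of the same exposure, by 0.26 ± 0.07 on the log2 scale with DMSO (adjusted p = 0.00985) and 0.42 ± 0.07 with TCDD (adjusted p = 9.51e-05). Leaving out replicate 3 of wild-type DMSO ended the call with DMSO, and adjusted p ran from 0.000873 to 0.0523 over the alternatives.

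**Figure D4:**
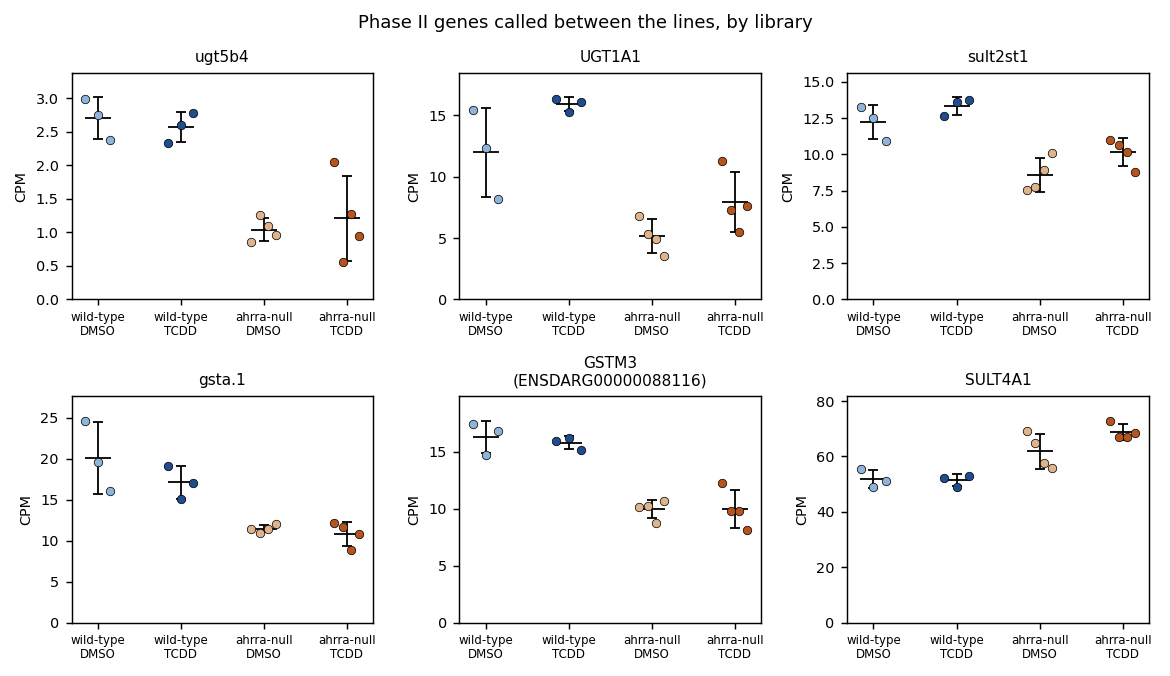
Levels in CPM (vertical axes, linear from 0) of 6 phase II genes called between the lines with DMSO and with TCDD, by group; points are libraries, and bars are the mean and SD of 3 or 4 libraries. In the first 5 genes the ahrra-null libraries lie below the wild-type libraries of the same exposure, and in SULT4A1 they lie above.

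Glutathione transferase genes had the most calls, with 11 of 19 lower and 1 higher in each exposure. Over all genes 11.7% were lower and 9.91% higher with DMSO, and 13.1% and 12.7% with TCDD. The number of calls does not rank the size of the differences. Median log2 differences with DMSO were -0.39 for GST and MGST, -0.44 for UGT and -0.38 for SULT genes. With TCDD they were -0.40, -0.28 and -0.16 in the same order. The UGT and SULT medians include the genes that entered through wild-type libraries, all with negative differences, and were not taken without them. No such gene is among the GST and MGST genes, so these medians do not rank the superfamilies either. gsta.1 (ENSDARG00000090228), of the alpha class, which in mammals is abundant in liver, measured 24.7, 19.6 and 16.04 CPM in wild-type DMSO and 11.4, 10.98, 11.4 and 12.1 CPM in ahrra-null DMSO. Exposed embryos held 19.2, 15.1 and 17.1 CPM if wild type and 12.2, 11.7, 8.84 and 10.8 CPM if ahrra-null. The lines did not overlap in either exposure, and the log2 difference was -0.81 ± 0.12 with DMSO (adjusted p = 0.000109) and -0.66 ± 0.13 with TCDD (adjusted p = 0.000687).

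The 3 genes printed as GSTM3, of the mu class, were all lower in ahrra-null in both exposures and without overlap. ENSDARG00000088116 measured 17.4, 14.7 and 16.8 CPM in wild-type DMSO against 10.2, 10.2, 8.79 and 10.7 CPM in ahrra-null DMSO. With TCDD it measured 15.9, 16.3 and 15.1 CPM against 12.2, 9.83, 9.77 and 8.15 CPM. Its log2 difference was -0.71 ± 0.10 with DMSO (adjusted p = 4.42e-05) and -0.66 ± 0.11 with TCDD (adjusted p = 7.89e-05). That adjusted p with DMSO was the smallest of the 48 in that comparison. The other 2 differed by -0.61 and -0.68 (ENSDARG00000029473) and by -0.39 and -0.31 (ENSDARG00000042533) with DMSO and TCDD, each called. They bear the same symbol and may share reads.

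The gene gstp1.2, of high CPM, was lower in ahrra-null by -0.51 ± 0.09 with DMSO (adjusted p = 0.000975) and -0.46 ± 0.09 with TCDD (adjusted p = 0.00159). Its 4 exposed ahrra-null libraries, at 149 to 202 CPM, thus fell around the 175 to 201 CPM of unexposed wild type; those groups differ in both line and exposure and were not compared by a test. gsto2 (ENSDARG00000033285), of the omega class, whose members have dehydroascorbate reductase and thioltransferase activities, was lower by -0.44 ± 0.11 (adjusted p = 0.00541) and -0.46 ± 0.11 (adjusted p = 0.00262). Among the membrane-bound enzymes MGST3 (ENSDARG00000102744) was lower by -0.41 ± 0.09 (adjusted p = 0.00265) and -0.51 ± 0.09 (adjusted p = 0.000236), and one of 2 genes printed as MGST1 (ENSDARG00000022165) by -0.62 ± 0.14 (adjusted p = 0.00332) and -0.44 ± 0.13 (adjusted p = 0.0173). With 1 surrogate variable gsto2 and this MGST1 gene were no longer called with DMSO (adjusted p = 0.0851 and 0.0658), and the MGST1 call with TCDD was lost without wild-type TCDD replicate 6 or 8 or ahrra-null TCDD replicate 15. mgst3b (ENSDARG00000033364), of high CPM, differed by 0.01 with DMSO (adjusted p = 0.932) and -0.00 with TCDD (adjusted p = 0.988), at means of 59.4 to 64.7 CPM in the 4 groups.

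The gene gstt1b was the GST gene higher in ahrra-null, by 0.74 ± 0.12 with DMSO (adjusted p = 7.95e-05) and 0.33 ± 0.11 with TCDD (adjusted p = 0.0256), and the latter call was lost without wild-type TCDD replicate 6 or 7 or ahrra-null TCDD replicate 13. Its carrier levels in ahrra-null, 10.5 to 13.2 CPM, stood beside 9.71 to 11.1 CPM in exposed wild type. The TCDD effect in wild type and the DMSO comparison between the lines share the wild-type DMSO libraries.

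Some markers of liver and gut were also called lower in ahrra-null. Of 14 hepatocyte markers tested 8 were lower and 0 higher with DMSO (median log2 difference -0.75), and 4 lower and 0 higher with TCDD (-0.57). Of 13 intestine genes 6 were lower and 1 higher with DMSO (-0.92), and 4 lower and 1 higher with TCDD (-0.67). Over all genes, 11.7% were lower with DMSO and 13.1% with TCDD. Summed over the hepatocyte list, wild-type DMSO held 301, 232 and 154 CPM, 139 to 155 CPM with wild-type TCDD, 133 to 173 CPM with ahrra-null DMSO and 87.6 to 134 CPM with ahrra-null TCDD. The intestine sum ran from 86.4 to 161 CPM, 100.8 to 109 CPM, 72.8 to 85.4 CPM and 68.9 to 98.4 CPM in the same order of groups. The hepatocyte sums of the lines overlapped with DMSO. With TCDD they did not, and the intestine sums did not overlap in either exposure, with ahrra-null lower in each case. Of 8 pronephros genes 1 was lower and 3 higher with DMSO, and 1 was lower and 1 higher with TCDD. The lower gene was CDH17 in each exposure, at -0.72 with DMSO (adjusted p = 0.0190) and -0.72 with TCDD (adjusted p = 0.0149). The higher genes with DMSO were CUBN and one gene each of those printed as SLC20A1 and PAX2, and with TCDD that PAX2 gene. The pronephros sum was 325 to 359 CPM in wild-type DMSO, 343 to 354 CPM in wild-type TCDD, 353 to 378 CPM in ahrra-null DMSO and 348 to 362 CPM in ahrra-null TCDD. Its largest part was the other SLC20A1 gene (ENSDARG00000010641), at group means of 159.5 to 171.6 CPM, so the sum says little about CDH17, at 18.4 to 32.4 CPM. The part of liver and gut RNA in the differences of the phase II genes was not tested.

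Replicate 2, with the highest hepatocyte and intestine sums, also had the highest summed UGT, SULT and GST levels of the wild-type DMSO libraries (77.4, 134.7 and 594 CPM), and replicate 4, with the lowest marker sums, had the lowest (61.1, 118 and 498 CPM). The ahrra-null DMSO libraries did not keep that order. There replicate 12 had the lowest marker sums (133 and 72.8 CPM) and the highest GST sum (457 CPM). Replicate 11 had the highest marker sums (173 and 85.4 CPM) and the lowest SULT sum (120.5 CPM). In ahrra-null TCDD replicate 13 was highest in each of these sums, and in wild-type TCDD no library was. Whether the sums follow one another was not tested. With DMSO the ahrra-null GST sum was 406 to 457 CPM, below the 498 to 594 CPM of wild type. A large part of it was gstp1.2, at means of 133 CPM in ahrra-null and 190 CPM in wild type. Without gstp1.2 and gstt1b the sums were 275.9 to 300.5 CPM and 316.7 to 384.9 CPM, still without overlap. The SULT sums of the lines overlapped with DMSO (118 to 134.7 and 120.5 to 134.0 CPM). With TCDD the hepatocyte markers had a median log2 fold change of -0.52 in wild type and -0.28 in ahrra-null, with 1 and 0 of 14 called lower. Over all genes 0.375% and 0.361% were called lower with TCDD in these lines. How these markers relate to the phase II genes called with TCDD was not tested.

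**Figure D5:**
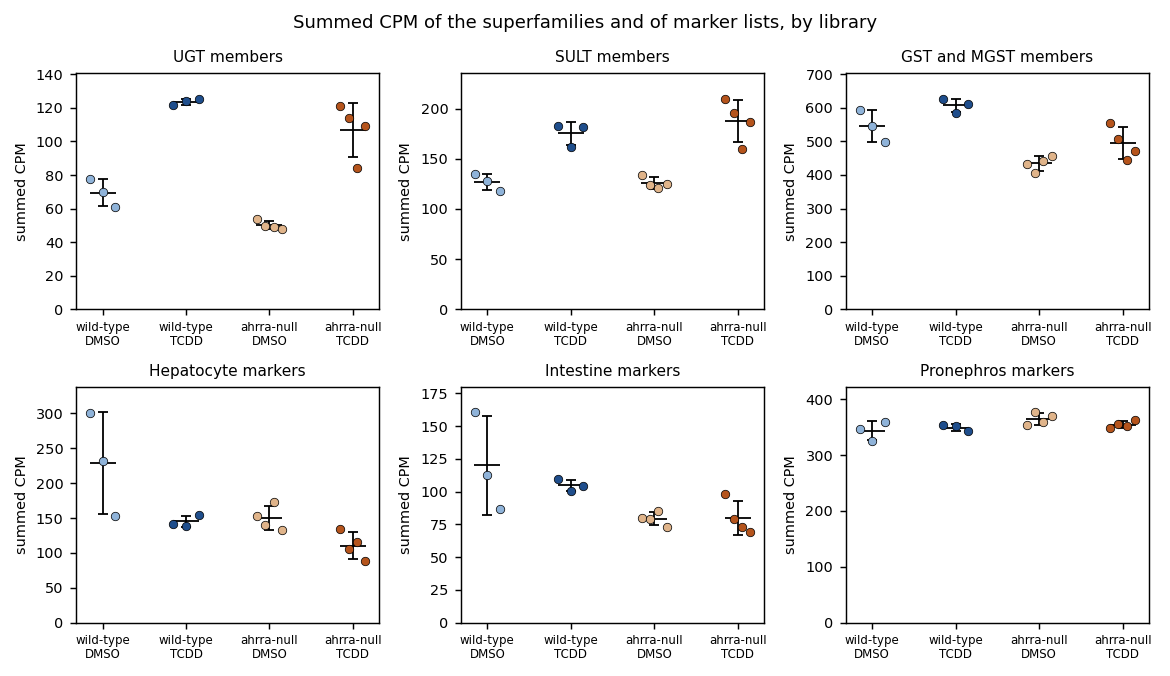
Summed CPM (vertical axes, linear from 0) of the 17 UGT, 12 SULT and 19 GST and MGST genes and of hepatocyte, intestine and pronephros markers, by group; points are libraries, and bars are the mean and SD of 3 or 4 libraries. UGT and SULT sums are higher with TCDD in both lines, GST sums with DMSO are lower in ahrra-null, and the hepatocyte sum is spread from 154 to 301 CPM in wild-type DMSO. Without ugt1b1 and ugt1b5 the UGT sums of the exposures overlap in both lines. Without sult6b1 the SULT sums overlap in wild type but not in ahrra-null. The largest part of the GST sums is gstp1.2.

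Genes that supply the donor molecules, move the conjugates or undo them were counted from lists, as 53 tested genes outside the 48. With TCDD, wild type had 1 of the 53 called, higher, and ahrra-null had 1 called, lower. That is 1.89% in each line, near the 0.856% and 1.18% called over all genes, and so no result about these lists. The riser was GUSB (ENSDARG00000063126), the lysosomal glucuronidase that removes glucuronic acid, with a log2 fold change of 0.37 (adjusted p = 0.0341), and the gene that fell was one of 2 printed as UGP2 (ENSDARG00000005578), which makes UDP-glucose (-0.45, adjusted p = 0.0218). UGDH, which makes UDP-glucuronic acid, was at 0.07 in wild type and -0.08 in ahrra-null and was not called, and neither were the PAPS synthase genes PAPSS1 and PAPSS2.

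Between the lines, 12 of the 53 listed genes were lower and 5 higher with DMSO, and 16 were lower and 4 higher with TCDD. Over all genes 11.7% were lower and 9.91% higher with DMSO, and 13.1% and 12.7% with TCDD. Of 11 transporter genes 5 were lower in each exposure, and none was higher. The export pump genes ABCC1 (ENSDARG00000104719), abcc2 (ENSDARG00000014031) and ABCC4 (ENSDARG00000058953) differed by -0.67, -0.66 and -0.63 with DMSO and by -0.55, -0.78 and -0.72 with TCDD, all called. The uptake carrier gene slco1d1 (ENSDARG00000104108), which moves organic anions into cells and so is no exporter, was also lower (-0.84 and -0.93). On the glutathione list 4 of 13 were lower and 1 higher with DMSO, and 6 lower and 1 higher with TCDD. Among the lower were GSS (ENSDARG00000037706), glutathione synthetase, at -0.92 and -1.26, and GSR (ENSDARG00000019236), glutathione reductase, at -0.45 and -0.38; the higher gene was CHAC1 (ENSDARG00000070426), which degrades glutathione, at 0.57 and 0.33. Of 10 sulfate donor genes 3 were lower in each exposure, among them one of 2 PAPSS2 genes (ENSDARG00000071021, -0.51 and -0.59). Of the 9 other conjugation genes tested 3 were higher in each exposure, among them GSTCD and GAMT, and UGT8 was lower with TCDD. None of the 4 deconjugation genes was called between the lines. Of the 6 genes of UDP-glucuronate supply and transport 1 was higher with DMSO and 1 lower with TCDD. That is near the shares over all genes and so no result about that list.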

How the data were processed

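Total RNA of whole embryos was made into unstranded Illumina TruSeq libraries, per the labels' protocols, so overlapping and antisense genes cannot be told apart. The files as deposited hold raw counts, in whole numbers, for Ensembl gene IDs. The submitters' processing notes name cutadapt, TopHat2, SAMtools, HTSeq, edgeR and the build GRCz10; versions, annotation release and treatment of multiply matching reads are not stated there. Close paralogs may have lost or split reads. Symbols came from a table of gene IDs, which matched 26269 of 32105 IDs; of 69 IDs with a symbol of the rule, 67 are in the files. Symbols in capitals are as that table gives them.

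Groups and replicate numbers came from the sample titles. Genes were filtered with filterByExpr by group at a minimum count of 10, leaving 21606 genes, scaled by TMM, and fitted with a robust negative binomial quasi-likelihood model over all 14 libraries and 4 groups. Log2 fold changes use a prior count of 0.125. An approximate SE was taken as the absolute log2 fold change over the root of its F statistic. No 2 libraries of a group were the same within sampling noise: the 18 pairs had chi-square values of 2.44 to 17.3 per degree of freedom. The method was tested on simulated data with independent replicates, so that test does not cover replicates whose spread may be technical. The changes planted in it were larger than many of the differences between the lines. The software was edgeR 4.0.16 under R 4.3.3; alternatives used DESeq2 1.42.0, limma 3.58.1 (voom) and, for surrogate variables, sva 3.50.0.

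Named genes are ugt1b5, sult6b1 and gstp1.2, the called members of each contrast (at most 12, by adjusted p) and the 2 of highest mean CPM per superfamily; others named were chosen after their values were seen. A listed symbol not found was looked up again with its final paralog letter or number removed. The members and lists were chosen with earlier results of these data known.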

Additional observations from a re-analysis of the deposited data

Results flagged for a closer look

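In 40 sets of 4 ahrra-null libraries (20 named genes with DMSO and with TCDD), the gap between the most extreme library and its nearest neighbour was compared with the whole range of the set. It passed the 95% critical value of 0.829 in 1 set, where chance alone flags about 1 in 20. That was ugt1b5 with TCDD: replicate 15 measured 39.5 CPM and the other 3 libraries 54.2 to 56.5 CPM. CYP1A1 was 465 CPM in the same library and 1057 to 1103 CPM in the others. The part of replicate 15's overall response in this gap was not tested.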

How the results depend on the processing

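No paired analysis was possible because the replicate numbers run on from group to group and no 2 groups share one. With 1 surrogate variable, 13 phase II genes were called between the lines with DMSO in place of 25. Leaving out each library in turn gave 16 to 24 calls there, with the lowest count without wild-type DMSO replicate 2, and 14 to 20 with TCDD in place of 20. The counts with TCDD ran from 3 to 4 in wild type and from 3 to 4 in ahrra-null under the same omissions, and from 4 to 5 and 3 to 6 under the other alternatives (median-ratio scaling, DESeq2, limma voom with quality weights, no filter, a filter of 10 counts in 3 libraries, fits of only the contrast's libraries, 1 surrogate variable). Calls over the whole table are not given for all these fits. A change in the members there cannot be told from a change over all genes. For the interaction, 0 phase II genes were called under the omissions and under the other alternatives, except the fit of only the contrast's libraries, which was not run because it holds the same libraries. Of 39 named calls, 30 were kept in every alternative run on them. Over 545 refits 513 kept the call, 32 lost it and 0 changed direction. Genes were mostly named for the smallest adjusted p, and the other calls between the lines were not followed. These numbers thus do not speak for all calls. ugt1b5, ugt1b1 and sult6b1 kept their TCDD calls in all alternatives, at log2 fold changes of 1.92 to 1.98, 1.46 to 1.61 and 1.38 to 1.53 in wild type and 2.16 to 2.31, 1.85 to 2.14 and 1.60 to 1.82 in ahrra-null. Where a call was lost the cause was not tested. Depth limits the low genes: ugt5b1, ugt5d1 and ugt5b3 rest on 36 or fewer counts per library, and the 19 genes below the count rule were not tested.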
